A study of Mus musculus with 6 samples.

Results

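The genes described here encode 8 RNA-binding proteins that act on AU-rich elements, short runs of A and U in the 3' untranslated regions (UTRs) of unstable mRNAs. They are the tristetraprolin family (Zfp36, Zfp36l1 and Zfp36l2), the Hu family (Elavl1, Elavl2, Elavl3 and Elavl4) and Khsrp. The members were taken by gene symbol, and all 8 were found among the 21878 rows of the expression table. The members were chosen by their place in this pathway after the FPKM of Zfp36 had been seen to be among the largest rises in cells with lncPim1 knocked down. Every comparison that uses the knockdown libraries is therefore given for the members as a description, without a p-value.

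RNA was sequenced from 6 libraries of Neuro-2a, a mouse neuroblastoma line of sympathetic origin: 2 overexpressing the long noncoding RNA lncPim1, 2 with lncPim1 lowered by RNA interference, and 2 controls labelled wild type. All 6 are the same cell line, and the labels name neither an empty vector nor a scrambled RNA. An effect of the vector or of the interfering RNA as such and an effect of lncPim1 cannot be told apart. Whether libraries of 1 group were grown separately is not recorded, and the p-values below cover the spread between libraries alone, part or all of which could be technical.

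Tristetraprolin and its relatives bind UAUUUAU through a pair of CCCH zinc fingers and recruit the CCR4-NOT deadenylase, which shortens the poly(A) tail and starts decay of the mRNA. The Hu proteins bind AU-rich and U-rich stretches through RNA recognition motifs and mostly stabilise the mRNAs they hold or favour their translation. Elavl1 (HuR) is made in nearly all cells, while Elavl2 (HuB), Elavl3 (HuC) and Elavl4 (HuD) are early markers of the neuronal fate. Khsrp (KSRP) binds the same elements through KH domains and promotes decay.

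The mRNAs of most members carry the element that their proteins bind. In GENCODE M21 on build GRCm38, the longest annotated 3' UTR held at least 1 copy of TATTTAT, the DNA form of the core element, in 7 of the 8 members. The same held for 30.5% of the 10338 tested genes with an annotated 3' UTR. The exception was Khsrp, with 0 copies in 1642 bases. The sites below show the first match in each of the 7, within 29 bases of the transcribed strand, with the match in capitals. The match is the longer form TTATTTATT where the UTR holds one.
Zfp36 (chr7:28376951-28376979, minus strand): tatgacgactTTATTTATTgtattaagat
Zfp36l1 (chr12:80108167-80108195, minus strand): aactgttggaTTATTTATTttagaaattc
Zfp36l2 (chr17:84184914-84184942, minus strand): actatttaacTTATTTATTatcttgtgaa
Elavl1 (chr8:4285788-4285816, minus strand): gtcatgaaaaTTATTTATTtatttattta
Elavl2 (chr4:91252699-91252727, minus strand): gtttacattttTATTTATgaagttacaaa
Elavl3 (chr9:22016025-22016053, minus strand): ctgtgtttaacTATTTATtctccttgttg
Elavl4 (chr4:110204985-110205013, minus strand): cttgaaacacTTATTTATTtaattgcaga
The 3 tristetraprolin-family UTRs each held 3 copies of TATTTAT and 1 of TTATTTATT, in 774 bases for Zfp36, 1835 for Zfp36l1 and 1822 for Zfp36l2. The Elavl1 UTR held 8 overlapping copies of each in 4218 bases, and its site shows the start of a repeated run. Elavl2 and Elavl3 held 3 copies of TATTTAT and 0 of the longer form, and Elavl4 held 2 and 1. Which of the annotated UTRs these cells use was not measured.

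The authors deposited FPKM, in which a gene's fragments are divided by its length and by the total mapped in the library. Summed FPKM was 294510 and 303139 in the overexpression libraries, 277508 and 272528 in the knockdown libraries, and 298032 and 305463 in the controls. Of 11 markers of sympathetic neuroblastoma, 10 averaged at least 1 FPKM, and Dbh, the noradrenaline-synthesising enzyme, lay between 0.155 and 0.494 FPKM. Of 10 macrophage markers, 1 averaged at least 1 FPKM (Lyz2). Their summed FPKM was 5.25 and 4.49 under overexpression, 6.51 and 6.20 under knockdown, and 7.20 and 6.58 in controls. Of 8 fibroblast markers, 1 averaged at least 1 FPKM, and their sums lay between 1.96 and 2.82. Macrophage-defining Ptprc and Csf1r stayed at or below 0.0224 FPKM. Fcer1g (0.554 and 1.04 FPKM), Tyrobp (0.643 and 0.350), Aif1 (0.165 and 0.118) and Itgam were higher in both knockdown libraries than in all others. Fcer1g was 0 in both controls. Lyz2, which made up most of the macrophage sum, and Cd14 were lower under knockdown than in both controls. The part of these differences in the results below was not tested. Of 12 digestive-tract markers, 11 averaged at least 1 FPKM, and Reg1, Fabp1 and Tff2 were among those listed at 0 in both knockdown libraries. Their sum was 28.8 and 39.7 under overexpression, 4.70 and 5.06 under knockdown, and 35.1 and 28.3 in controls, so it moved with knockdown, and its part in the results below was not tested. lncPim1 itself was not analysed here, so the group labels were not checked on it.

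Zfp36, which encodes tristetraprolin, was the tested member with the widest differences between groups. Its level was 7.83 and 6.47 FPKM under overexpression, 17.5 and 17.6 FPKM under knockdown, and 4.05 and 6.12 FPKM in controls. Both knockdown libraries lay above the other 4, and both overexpression libraries lay above both controls by a margin smaller than the gap between the controls. The means were 7.15 ± 0.963 FPKM under overexpression, 17.6 ± 0.110 under knockdown and 5.09 ± 1.46 in controls (SD, n = 2 each). Among the 10721 genes averaging at least 1 FPKM, this placed Zfp36 above 40.6% of genes under overexpression, 70.8% under knockdown and 30.7% in controls.

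**Figure D1:**
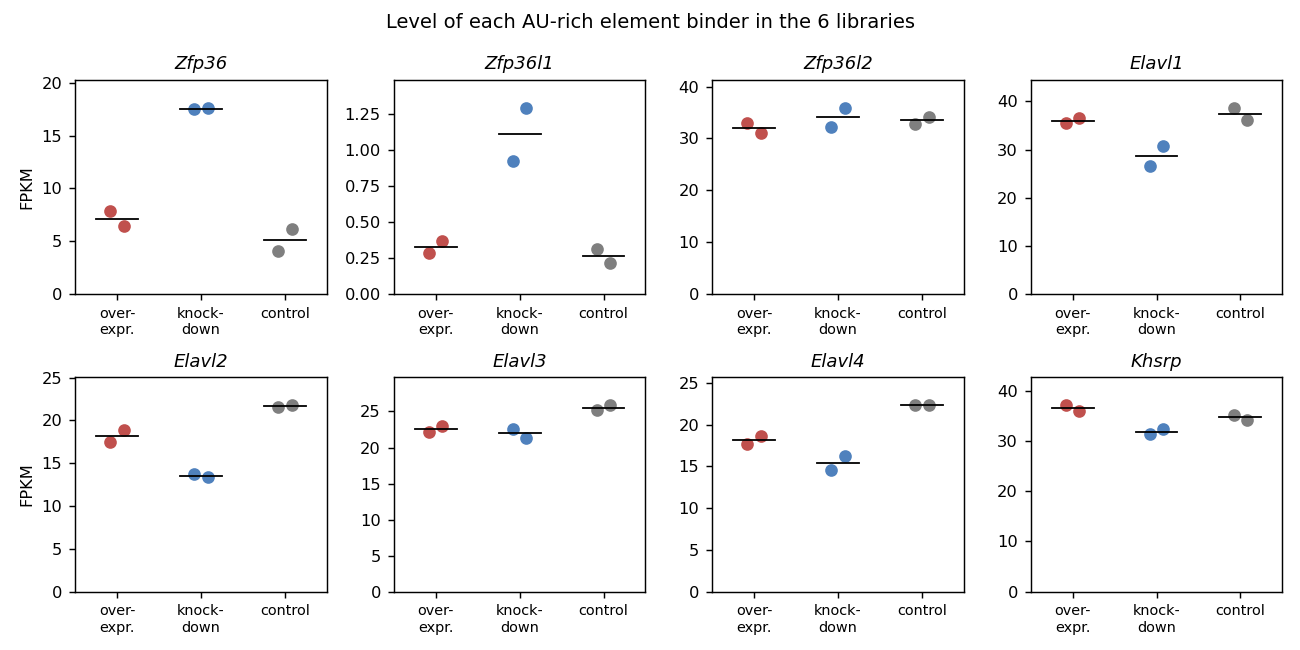
Level in FPKM (y axis, linear, from 0, with its own scale in each panel) of the 8 members in the overexpression, knockdown and control libraries. Points are single libraries and lines are means of 2. Zfp36 stands at 17.5 and 17.6 FPKM in knockdown cells, above the other 4 libraries, while Elavl2 stands lowest there, at 13.7 and 13.4 FPKM.

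The other tristetraprolin-family genes sat at opposite ends of the scale. Zfp36l2 was the most abundant of the family, at 33.1 and 31.1 FPKM under overexpression, 32.2 and 35.9 FPKM under knockdown, and 32.8 and 34.2 FPKM in controls. The 3 groups overlapped. Zfp36l1 was near the detection limit, at 0.285 and 0.370 FPKM under overexpression, 0.922 and 1.29 FPKM under knockdown, and 0.309 and 0.218 FPKM in controls. Both of its knockdown values lay above the other 4. With a mean under 1 FPKM it was left out of the fit, so 7 of the 8 members were tested. Opposite-strand Gm26669 covers 55.9% of the exonic bases of Zfp36l1, and how strand was handled in counting is not known here, so its reads cannot be told from those of that gene. Such overlaps took up 3.60% of the exonic bases of Zfp36 (Gm44710) and 2.97% of those of Zfp36l2 (AC132455.1).

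Elavl1, which encodes HuR, stood at 35.5 and 36.5 FPKM under overexpression, 26.5 and 30.8 FPKM under knockdown, and 38.7 and 36.2 FPKM in controls. Both knockdown libraries lay below the other 4, while overexpression and control overlapped. The chemokine gene Ccl25 on the opposite strand covers 1.97% of its exonic bases.

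Of the neuronal Hu genes, Elavl2 stood at 17.5 and 18.9 FPKM under overexpression, 13.7 and 13.4 FPKM under knockdown, and 21.6 and 21.8 FPKM in controls. Elavl4 stood at 17.6 and 18.7 FPKM under overexpression, 14.6 and 16.2 FPKM under knockdown, and 22.3 FPKM in each control library. For both genes the 3 groups did not overlap, with knockdown lowest and control highest. These genes are used as markers of neuronal commitment. Elavl3 stood at 22.1 and 23.0 FPKM under overexpression, 22.6 and 21.4 FPKM under knockdown, and 25.2 and 25.8 FPKM in controls. Its treated groups overlapped each other and both lay below the controls. Khsrp stood at 37.1 and 36.0 FPKM under overexpression, 31.4 and 32.3 FPKM under knockdown, and 35.2 and 34.3 FPKM in controls, with the 3 groups apart. It is the only member that stood highest under overexpression and lowest under knockdown.

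Overexpression was compared with control in a linear model of log2(FPKM + 1) over all 10721 tested genes (limma), in which all 6 libraries shared 1 estimate of the spread. With Benjamini-Hochberg adjustment, limma called 0 of the 7 tested members at an adjusted p under 0.05, where 1.54% of all tested genes were called. At an unadjusted p under 0.05 there were 4 of 7 members, against 17.1% of all tested genes. These were Zfp36, Elavl2, Elavl3 and Elavl4. The set was chosen after Zfp36 was seen to rise over these same controls, so its place in this count is no independent evidence. The overexpression and control libraries did not overlap in 5 of the 7, 2 upward and 3 downward, where 49.5% of all tested genes did not overlap (23.3% upward, 26.2% downward).

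The neuronal Hu genes came nearest to the threshold under overexpression. The log2 fold change of Elavl4 was -0.28 ± 0.06 (SE; limma, adjusted p = 0.0665), that of Elavl2 was -0.24 ± 0.06 (limma, adjusted p = 0.0757) and that of Elavl3 was -0.17 ± 0.05 (limma, adjusted p = 0.159). All 3 were lower in both overexpression libraries than in both controls. Elavl4 passed the threshold in 3 of 16 alternative fits, with the 4 libraries of the comparison alone (limma, adjusted p = 0.0468) and without knockdown 1 (0.0480) or knockdown 2 (0.0482). Elavl1, the Hu gene of most tissues, had a log2 fold change of -0.05 ± 0.07 (limma, adjusted p = 0.753). Zfp36 had 0.44 ± 0.14 (limma, adjusted p = 0.172), with the widest error of the 7. The knockdown rise that led to the set used these same controls, so this p-value is not independent of the choice. The log2 fold change of Zfp36 was 0.19 without control 1 and 0.69 without control 2, and lay between these in the other alternatives. Zfp36l2 had -0.06 ± 0.06 (limma, adjusted p = 0.690) and Khsrp 0.07 ± 0.05 (limma, adjusted p = 0.496).

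**Figure D2:**
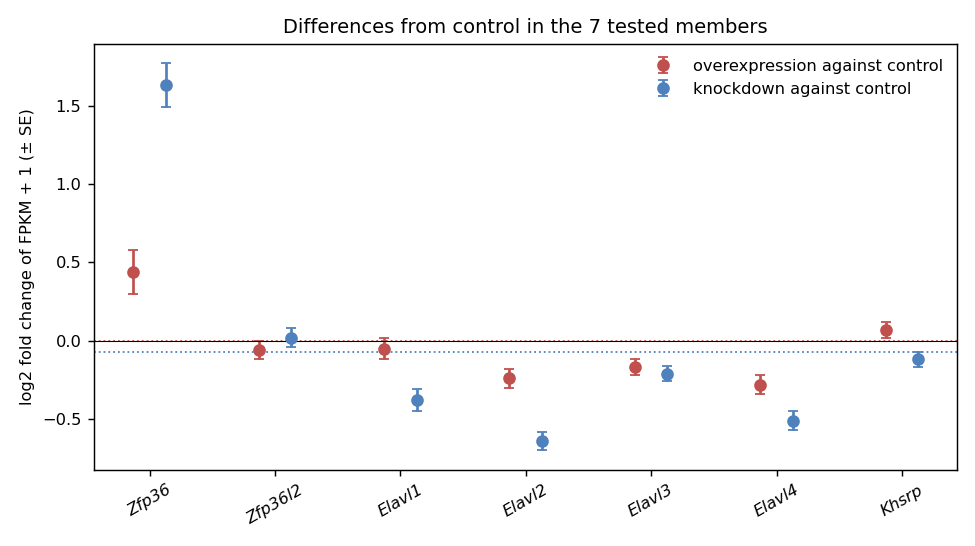
Log2 fold change of FPKM + 1 (y axis) of the 7 tested members in overexpression (left point) and knockdown (right point) against control. Bars are standard errors from limma, dotted lines are the medians of all tested genes. Zfp36 stands at 1.63 under knockdown, and the 4 Elavl genes lie below 0 in both comparisons.

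Under knockdown Zfp36 lay above the controls and the 4 Hu genes lay below them, while Zfp36l2 overlapped them. Zfp36 averaged 3.46 times its control mean, a log2 fold change of 1.63 ± 0.14 (SE). The log2 fold changes of the Hu genes were -0.64 ± 0.06 for Elavl2, -0.51 ± 0.06 for Elavl4, -0.38 ± 0.07 for Elavl1 and -0.21 ± 0.05 for Elavl3. Mean Elavl2 in knockdown cells was 0.627 of its control mean, and mean Elavl4 was 0.691 of it. Zfp36l2 had 0.02 ± 0.06 and Khsrp -0.12 ± 0.05. Against these, the median of all tested genes was -0.07. The fit placed 1 of 7 tested members higher (Zfp36) and 4 lower (the Hu genes) at an adjusted p under 0.05, where 14.8% of all tested genes were higher and 31.3% lower (46.2% in all). Nothing is read from this count, since these values helped to choose the set. After median ratio scaling 2245 genes were higher and 2286 lower in place of 1590 and 3358. Groups did not overlap in 6 of 7 members, 1 upward and 5 downward, against 74.4% of all tested genes (26.5% upward, 47.9% downward).

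The place of Elavl3 under knockdown depended on scaling. Its log2 fold change was -0.13 when libraries were scaled by their median ratio and -0.09 after quantile normalization. It was -0.17 without knockdown 2 and -0.19 without control 2. After either scaling the fit placed 3 members lower in place of 4, a count from which nothing is read. Khsrp changed sign after quantile normalization, to 0.01, and Zfp36l2 did so without knockdown 2, at -0.06, and without control 1, at -0.01. Zfp36 stayed between 1.38 and 1.88 over the 16 alternatives, Elavl2 between -0.67 and -0.55, Elavl4 between -0.58 and -0.40 and Elavl1 between -0.48 and -0.25. Zfp36l1, fitted without the filter on low values, had 0.73 ± 0.10 under knockdown and 0.07 ± 0.10 under overexpression (limma, adjusted p = 0.823 for overexpression).

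Set directly against knockdown, overexpression libraries had less Zfp36 (log2 fold change -1.19 ± 0.14) and more Elavl2 (0.40 ± 0.06), Elavl1 (0.32 ± 0.07), Elavl4 (0.22 ± 0.06) and Khsrp (0.19 ± 0.05). Elavl3 (0.04 ± 0.05) and Zfp36l2 (-0.08 ± 0.06) differed by about their error, and Elavl3 was -0.04 after median ratio scaling and -0.07 after quantile normalization. At an adjusted p under 0.05 the fit placed 4 members higher and 1 lower. Of all tested genes 28.1% were higher and 12.4% lower (40.5% in all). After median ratio scaling it placed 2 members higher and 1 lower, and after quantile normalization 1 higher and 2 lower. Nothing is read from these counts, since these values helped to choose the set. This comparison shares its libraries with both comparisons against control and adds no independent value. After quantile normalization the log2 fold change was 0.21 for Elavl1, 0.13 for Elavl4, 0.07 for Khsrp and -0.20 for Zfp36l2. After median ratio scaling it was 0.15 for Elavl4 and 0.12 for Khsrp. Elavl4 had 0.19 without overexpression 2 and 0.16 without knockdown 1. Khsrp had 0.17 without overexpression 1 and 0.17 without knockdown 1.

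FPKM is scaled to length, so levels of different members can be added. The tristetraprolin family summed to 41.2 and 37.9 FPKM under overexpression, 50.6 and 54.9 FPKM under knockdown, and 37.1 and 40.5 FPKM in controls. Zfp36 made up 19.0% and 17.1% of that sum under overexpression, 34.6% and 32.1% under knockdown, and 10.9% and 15.1% in controls. Zfp36l2 supplied most of the rest, so the family sum moved far less than Zfp36 did. The 4 Hu genes summed to 92.8 and 97.0 FPKM under overexpression, 77.4 and 81.7 FPKM under knockdown, and 108 and 106 FPKM in controls, and the 3 groups did not overlap. Summed Hu FPKM divided by summed tristetraprolin-family FPKM was 2.25 and 2.56 under overexpression, 1.53 and 1.49 under knockdown, and 2.90 and 2.62 in controls. The ratio was thus lowest in both knockdown libraries. This was partly set in advance, because the set was chosen after the knockdown rise of Zfp36, which is in the divisor. Within the Hu family Elavl1 held a similar share throughout, 38.3% and 37.6% under overexpression, 34.2% and 37.7% under knockdown, and 35.9% and 34.1% in controls.

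**Figure D3:**
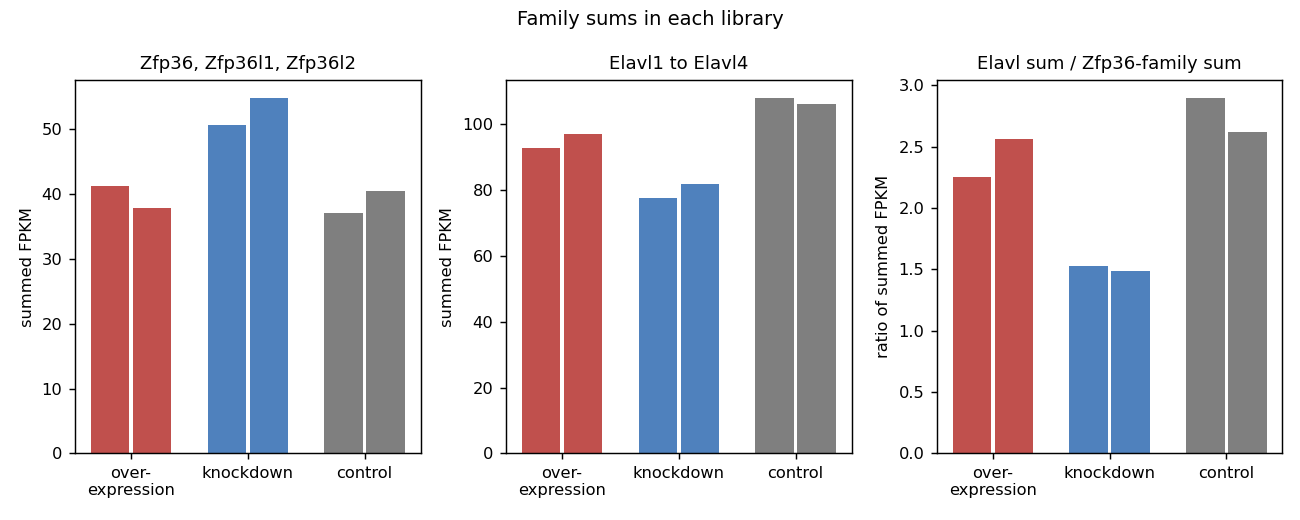
Summed FPKM of the tristetraprolin family (left) and of the 4 Hu genes (middle), and the second divided by the first (right), in each library. Bars are single libraries and start at 0. The ratio is 1.53 and 1.49 in knockdown cells and lies between 2.25 and 2.90 in the other 4 libraries. The divisor includes Zfp36, whose knockdown rise led to the set.

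For each tested member the 3 genes with the most similar profile were taken by the Pearson correlation of log2(FPKM + 1) over the 6 libraries. All tested genes were searched except the members, predicted gene models (Gm and Rik names) and rows with a date for a symbol. With so many genes searched over libraries that form 3 groups of 2, the values describe likeness alone. Nearest to Zfp36 were Vegfa, the vascular growth factor gene (r = 0.999), Arntl, a clock transcription factor gene (r = 0.998), and Shprh, a ubiquitin ligase gene (r = 0.997). Vegfa stood at 33.4 and 31.0 FPKM under overexpression, 44.3 FPKM in each knockdown library, and 27.0 and 30.2 FPKM in controls. Near to Elavl2 were the histone gene H3f3b (r = 1) and Sgol1 (r = 0.998). Nearest to Elavl4 were Reep5 (r = 0.997), F2rl2 (r = 0.995) and C1ql1 (r = 0.993), and nearest to Elavl3 were the neurotrophin receptor gene Ngfr (r = 0.997), Cep72 (r = 0.991) and Rpl15 (r = 0.989). Nearest to Elavl1 were Dfna5 (r = 0.997), Ten1 and Htatsf1 (r = 0.995 each). Nearest to Khsrp were Ssbp1 (r = 0.999), Eno3 and Nup214 (r = 0.997 each), and to Zfp36l2 Zfand4 (r = 0.982), Ythdc2 (r = 0.978) and Zfp941 (r = 0.972).

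mRNAs known as targets of the tristetraprolin family were mostly higher under knockdown. Of 34 such mRNAs, listed as containing AU-rich elements, 23 were tested. Under knockdown 15 rose, 1 fell and 7 were not called (limma, adjusted p under 0.05), or 69.6% called, where 14.8% of all tested genes rose and 31.3% fell (46.2% called). The median log2 fold change was 0.42 against -0.07 for all tested genes. The list was drawn up with earlier results of these data known, among them values of Cxcl1, Cxcl2, Pim1 and Pim3, so its count is no independent evidence of its direction. Over all alternatives between 12 and 16 members were higher and 1 was lower.

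The chemokine gene Cxcl1 had 8.34 and 5.24 FPKM under overexpression, 35.5 and 37.0 FPKM under knockdown, and 3.13 and 5.47 FPKM in controls. Il6, the interleukin 6 gene, had 8.57 and 7.68 FPKM under overexpression, 15.0 and 16.9 FPKM under knockdown, and 5.39 and 6.35 FPKM in controls. Ier3, an immediate early survival gene, had 29.5 and 26.7 FPKM under overexpression, 58.7 and 59.1 FPKM under knockdown, and 24.1 and 27.2 FPKM in controls. For each of the 3 both knockdown libraries lay above the other 4. Cxcl1 differed by 2.85 ± 0.22 on the log2 scale under knockdown, given without a p-value because this difference was known when the list was drawn up. Il6 rose by 1.30 ± 0.09 (limma, adjusted p = 7.81e-05) and Ier3 by 1.17 ± 0.07 (5.37e-05). Both were picked by smallest p from a list drawn up with earlier results known, so these p-values are no independent evidence about the list. Nfkbiz, which encodes an IkB-like regulator of cytokine genes, rose by 1.11 ± 0.07 (limma, adjusted p = 7.19e-05). Vegfa rose by 0.62 ± 0.06 (limma, adjusted p = 2.31e-04). Plaur, the urokinase receptor gene, had 0.09 ± 0.07 (limma, adjusted p = 0.312) and was called after quantile normalization (0.21; adjusted p = 0.0467). The member that fell was Ccnd1, the cyclin D1 gene, at 191 and 197 FPKM under overexpression, 179 and 173 FPKM under knockdown, and 226 and 225 FPKM in controls (knockdown log2 fold change -0.35 ± 0.05; limma, adjusted p = 5.69e-04). The classical target Tnf, named here after its values were seen, was below the filter, at 0.150 and 0.207 FPKM under overexpression, 0.895 and 0.955 FPKM under knockdown, and 0.0912 and 0.188 FPKM in controls.

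**Figure D4:**
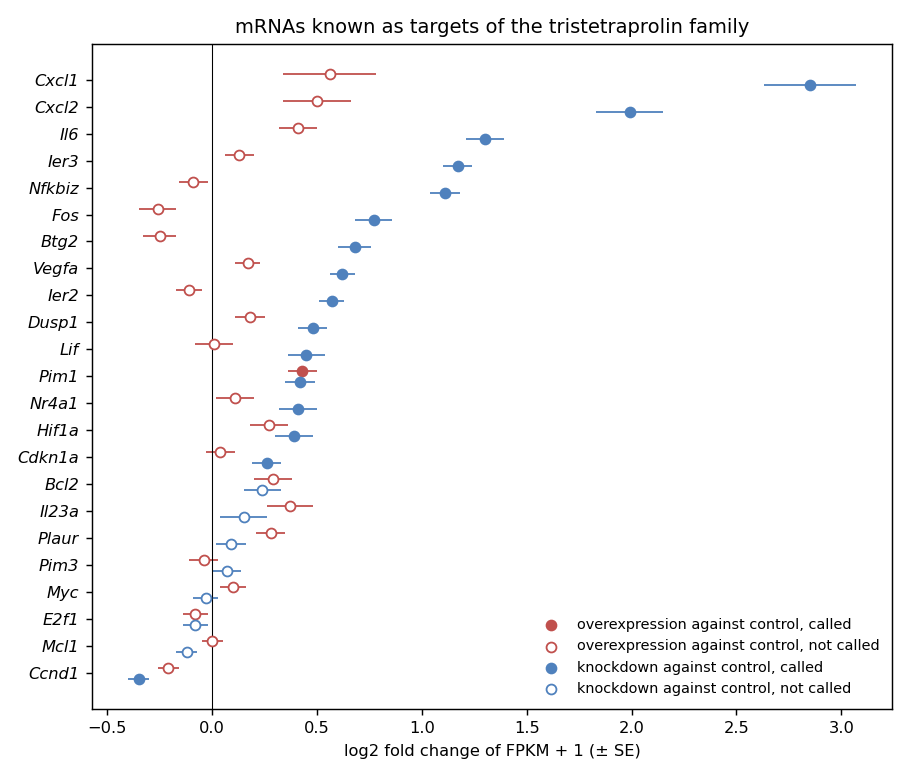
Log2 fold change of FPKM + 1 (x axis) of the 23 tested mRNAs known as targets of the tristetraprolin family, in overexpression (upper point of each gene) and knockdown (lower point) against control. Bars are standard errors, and filled points are past an adjusted p of 0.05 (limma). Under knockdown 15 genes are filled to the right and 1, Ccnd1, to the left. Values of Cxcl1, Cxcl2, Pim1 and Pim3 were known when the list was drawn up, so the filled points are no independent evidence.

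Sites are shown for named targets that rose under knockdown. They are given as above, on build GRCm38, with the first match in capitals.
Cxcl1 (chr5:90892615-90892643, plus strand): atttatgtatTTATTTATTccacaaagtg
Ier3 (chr17:35822481-35822509, plus strand): tgtctaattaaTATTTATgtatttatgta
Il6 (chr5:30019728-30019756, plus strand): tttatgattgaTATTTATtatttttatga
Pim1 (chr17:29495689-29495717, plus strand): tttaatgtatTTATTTATTtatttatttg
Dusp1 (chr17:26506159-26506187, minus strand): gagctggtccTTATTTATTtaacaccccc
Cxcl1 held 6 copies of TATTTAT in 592 bases, Ier3 4 in 613, Il6 1 in 1668, Pim1 4 in 1365 and Dusp1 3 in 690. Ccnd1, the target that fell, held 1 in 2676. Of the 23 tested targets 17 held at least 1 copy, 73.9%, against 30.5% of all tested genes with an annotated 3' UTR. The list was drawn up as mRNAs containing AU-rich elements, so a high share was set in advance. Of those 17, 11 rose and 1 fell under knockdown, with a median log2 fold change of 0.45. Of the 6 without a copy, Nfkbiz among them, 4 rose and 0 fell, with a median of 0.34.

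All tested genes were also grouped by the element. Under knockdown the median log2 fold change was -0.07 in each class, over 7184 genes with 0 copies of TATTTAT in the longest 3' UTR, 2027 with 1, 703 with 2 and 424 with 3 or more. The shares that rose were 15.0%, 13.5%, 16.1% and 15.3% in the same order, and the shares that fell were 31.2%, 33.1%, 28.0% and 33.5%. Copies go with length, the median UTR being 874 bases at 0 copies and 3291 at 3 or more. When genes were split by UTR length into 3 bands of equal size, 27.8% of 72 genes with 3 or more copies rose against 15.6% of 2499 with 0 copies in the middle band (over 703 and up to 1865 bases). In the longest band 11.3% of 336 rose against 12.8% of 1606. Under overexpression the medians lay between -0.004 and 0.012 in the 4 classes. Genes with 3 or more overlapping copies of TTTTTTT, a U-rich run of the kind Hu proteins bind, had a median of -0.09 under knockdown (3113 genes), against -0.05 for 5701 genes with 0 copies. The median was -0.10 at 1 copy and -0.08 at 2, so it did not fall steadily with copies. The end classes also differed in median UTR length, 2395 bases against 673, and in A and T content, 58.2% against 52.4%. In the shortest length band the median was -0.09 at 3 or more copies and -0.07 at 0. It was -0.09 and -0.04 in the middle band, and -0.09 and -0.05 in the longest. The part of A and T content was not tested.

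**Figure D5:**
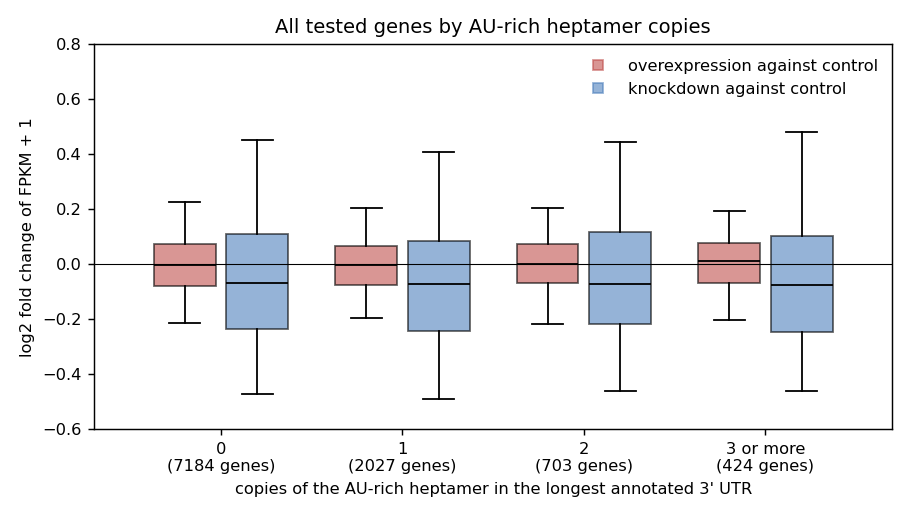
Log2 fold change of FPKM + 1 (y axis) of all tested genes with an annotated 3' UTR, by copies of the AU-rich heptamer (x axis, with the number of genes), in overexpression (left box) and knockdown (right box) against control. Boxes span the quartiles with the median as a line, whiskers run from the 5th to the 95th percentile. The knockdown medians are -0.07 in each of the 4 classes.

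mRNAs known as Hu targets were lower more often than higher under knockdown, as were tested genes at large. Of 22 tested, 1 rose, 9 fell and 12 were not called, with a median log2 fold change of -0.16. The 45.5% called is near the 46.2% of all tested genes (14.8% higher, 31.3% lower), so the count is no result about these mRNAs. Nrn1, which encodes neuritin and is stabilised by HuD, had 19.8 and 21.9 FPKM under overexpression, 12.3 and 14.4 FPKM under knockdown, and 30.7 and 27.5 FPKM in controls. The 3 groups of Nrn1 did not overlap, and it fell by 1.07 ± 0.08 on the log2 scale under knockdown. No p-value is given for this fall, because a value of Nrn1 was known when the lists were drawn up. Ptma, the prothymosin gene bound by HuR, fell by 0.75 ± 0.06 (limma, adjusted p = 1.15e-04), and the cyclin genes Ccnb1 by 0.58 ± 0.04 (9.70e-05) and Ccna2 by 0.49 ± 0.05 (1.86e-04). Satb1, a chromatin organiser gene, fell by 0.33 ± 0.06 (limma, adjusted p = 0.00256). Mapt, the tau gene and a HuD target, had -0.03 ± 0.05 (limma, adjusted p = 0.696).

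Among 22 tested genes for other binders of AU-rich or U-rich elements, 2 rose and 8 fell under knockdown, with a median of -0.11. The 45.5% called is again near the 46.2% of all tested genes, of which 14.8% rose and 31.3% fell. Hnrnpab fell by 0.55 ± 0.04 (limma, adjusted p = 1.19e-04), Pcbp2, a poly(C) binder, by 0.52 ± 0.05 (1.64e-04), Hnrnpa2b1 by 0.43 ± 0.05 (3.23e-04) and Pum2, a Pumilio repressor, by 0.21 ± 0.05 (0.00762), a call lost after median ratio scaling (0.0635) and quantile normalization (0.219). Zc3h12a, which encodes the cytokine mRNA endonuclease regnase-1, rose by 0.85 ± 0.12 (limma, adjusted p = 7.72e-04), at 1.06 and 1.05 FPKM under overexpression, 2.08 and 2.78 FPKM under knockdown, and 1.01 and 0.776 FPKM in controls. The number that fell was 5 after median ratio scaling and 3 after quantile normalization.

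For the decay machinery that the tristetraprolin family recruits, counts under knockdown stand beside 14.8% of all tested genes that rose, 31.3% that fell and 46.2% called in all, with a median of -0.07. Of 19 tested deadenylase genes 4 rose and 8 fell, 63.2% called, with a median of -0.07, the same as for all tested genes to this precision. Cnot6, a catalytic subunit, fell by 0.37 ± 0.05 (limma, adjusted p = 5.81e-04) and Cnot7, another, by 0.24 ± 0.05 (0.00353; 0.0848 after quantile normalization), and the CCR4-NOT subunit genes Cnot10 by 0.45 ± 0.07 (0.00142) and Cnot9 by 0.41 ± 0.06 (6.24e-04). Pan2, of the PAN2-PAN3 deadenylase, rose by 0.41 ± 0.06 (limma, adjusted p = 0.00145), and Btg1, which binds CCR4-NOT, by 0.61 ± 0.07 (3.85e-04). Tob2, which links CCR4-NOT to poly(A)-binding protein, rose by 0.24 ± 0.07 (limma, adjusted p = 0.0262), a call lost without the filter (0.0657), knockdown 2 (0.148) or control 2 (0.152). The list's median was 0.01 after median ratio scaling and 0.005 after quantile normalization, where 7 and 4 fell. After median ratio scaling 2245 of all tested genes rose and 2286 fell, in place of 1590 and 3358. Counts of the next list are given without such scaling. Of 20 decapping and 5'-to-3' decay genes 2 rose and 11 fell, 65.0% called, with a median of -0.26. The Lsm-ring genes Lsm7 (-0.57 ± 0.06; limma, adjusted p = 1.88e-04), Lsm2 (-0.50 ± 0.06; 5.23e-04) and Lsm3 (-0.39 ± 0.05; 6.79e-04) were among them, as were Lsm6 (-0.33 ± 0.06; 0.00222) and Eif4enif1, which encodes the eIF4E transporter (-0.35 ± 0.05; 0.00126). Xrn2, a nuclear exonuclease gene, had 0.05 ± 0.06 (limma, adjusted p = 0.516), while the decapping enzyme gene Dcp2 rose by 0.23 ± 0.06 (limma, adjusted p = 0.0179), a call lost without any 1 of the knockdown or control libraries (0.0510 to 0.0868). Of 15 exosome genes 1 rose and 7 fell, 53.3% called, with a median of -0.20. Exosc4 fell by 0.36 ± 0.06 (limma, adjusted p = 0.00189) and Exosc8 by 0.30 ± 0.06 (0.00326). Exosc7 fell by 0.31 ± 0.07 (limma, adjusted p = 0.00788; 0.0632 without control 1). Exosc10, a catalytic subunit gene, fell by 0.22 ± 0.05 (limma, adjusted p = 0.00772; 0.0566 after median ratio scaling, 0.136 after quantile normalization, 0.0592 without control 1). Exosc6 had 0.14 ± 0.07 (limma, adjusted p = 0.151) and the cofactor gene Ttc37 0.12 ± 0.05 (0.110), and both were called higher after median ratio scaling (0.0363 and 0.0173) and quantile normalization (0.0209 and 0.0122). After either scaling 3 exosome genes rose and 4 fell.

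Genes that act on the binders themselves were counted beside the same shares of all tested genes, 14.8% higher and 31.3% lower under knockdown. Tristetraprolin is phosphorylated by MK2 downstream of p38 and dephosphorylated by PP2A, and the phosphorylated form is held by 14-3-3 proteins. Of 17 tested genes of this group 2 rose and 9 fell under knockdown, 64.7% called, with a median of -0.15. Mapkapk2, the MK2 gene, had 15.0 and 14.2 FPKM under overexpression, 10.6 and 10.8 FPKM under knockdown, and 12.3 and 13.2 FPKM in controls, and fell by 0.23 ± 0.06 under knockdown (limma, adjusted p = 0.0120), a call lost after median ratio scaling (0.0577) and without control 2 (0.0897). The PP2A catalytic genes Ppp2cb (-0.49 ± 0.05; limma, adjusted p = 2.78e-04) and Ppp2ca (-0.35 ± 0.04; 5.07e-04) fell, as did the 14-3-3 genes Ywhae (-0.53 ± 0.06; 2.48e-04) and Ywhaz (-0.42 ± 0.05; 2.82e-04). Dusp1, the phosphatase that switches off p38, rose by 0.48 ± 0.07 (limma, adjusted p = 0.00125). After either scaling 5 genes of the group fell, and 4 or 5 rose. Of 15 HuR partners and modifying enzymes 2 rose and 9 fell, 73.3% called, with a median of -0.21, and 7 and 5 fell after median ratio scaling and quantile normalization. The HuR ligand genes Anp32b (-0.60 ± 0.05; limma, adjusted p = 1.11e-04), Anp32a (-0.36 ± 0.05; 5.88e-04) and Set (-0.33 ± 0.04; 6.83e-04) fell, as did Prkca, a kinase of HuR (-0.70 ± 0.08; 2.87e-04), and Carm1, which methylates HuR (-0.39 ± 0.05; 7.31e-04). Trim21, a ubiquitin ligase gene, rose by 0.65 ± 0.11 (limma, adjusted p = 0.00180).

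Under overexpression 4 genes of these lists were called. Pim1, a survival kinase gene in the target list, rose, with 23.5 and 24.1 FPKM under overexpression against 16.2 and 18.8 FPKM in controls (log2 fold change 0.43 ± 0.07; limma, adjusted p = 0.0294). Knockdown libraries stood at 24.4 and 23.1 FPKM (0.42 ± 0.07 against control), and overexpression against knockdown gave 0.00 ± 0.07. These knockdown comparisons are given without p-values, because values of Pim1 were known when the target list was drawn up. Igf2bp3, which encodes an mRNA-stabilising protein of embryonic and tumour cells, rose, with 5.40 and 5.74 FPKM against 3.05 and 3.66 FPKM (0.60 ± 0.09; limma, adjusted p = 0.0229). The exosome gene Exosc5 rose, with 28.3 and 28.4 FPKM against 23.9 and 22.6 FPKM (0.28 ± 0.05; limma, adjusted p = 0.0445). Nrn1 fell by 0.46 ± 0.08 (limma, adjusted p = 0.0398), a value that was known, like those of Pim1, when the lists were drawn up. The calls of Pim1 and Nrn1 are therefore no independent evidence. The 4 calls were 1 of 23 targets, 1 of 22 Hu targets, 1 of 22 other binders and 1 of 15 exosome genes, against 1.54% of all tested genes. The target list had a median log2 fold change of 0.11 and the Hu target list one of -0.09. In the other 4 lists limma called 0 genes. Each of the 4 calls was lost when overexpression 1 (limma, adjusted p = 0.109 to 0.231), overexpression 2 (0.0757 to 0.137) or control 1 (0.181 to 0.258) was left out, and without the filter on low values (0.109 to 0.172). Without control 2 Pim1 kept its call (limma, adjusted p = 0.0395) and the other 3 lost theirs (0.0561 to 0.217).

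The promoter of Zfp36 is shown because this gene differed most among the tested members. The stretch from 250 bases before to 50 bases after its RefSeq start, on build GRCm38.p6, is chr7:28379179-28379478 on the minus strand.
Zfp36 promoter: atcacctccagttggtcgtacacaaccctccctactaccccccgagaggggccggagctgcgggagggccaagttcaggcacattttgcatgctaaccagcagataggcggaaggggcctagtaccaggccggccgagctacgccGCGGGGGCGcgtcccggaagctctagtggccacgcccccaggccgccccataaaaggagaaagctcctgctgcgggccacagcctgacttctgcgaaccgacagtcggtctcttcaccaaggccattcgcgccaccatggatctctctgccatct
The capitals mark GCGGGGGCG, the letters bound by Egr factors, searched with GCGTGGGCG on both strands. Either was found in 3.47% of all 32851 RefSeq promoters of this length, and in none of the other 14 promoters of members (7 of the 8 members had at least 1). The letters TGACTCA (AP-1), TGACGTCA (CRE) and CACGTG (E-box), searched on both strands, were found in 0 of the 15, where 5.20%, 1.79% and 7.15% of all promoters held them in the same order. TATAAA, searched on both strands, was found in those of Elavl3 and Zfp36l1, and in 13.6% of all promoters. Some spellings of the NF-kB and serum response letters were searched too and found in 0 of the 15. All promoters held them in 0.42% and 0.256%. Other spellings were not searched, so unmarked stretches may hold them. A match describes letters and is no measurement of binding.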

How the data were processed

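RNA-seq was done on 6 Neuro-2a libraries, 2 in each of 3 groups, grouped by their titles. FPKM values, 1 per gene symbol in each library, are what the authors deposited. Build mm10 and the tools HISAT2, Cufflinks, Trimmomatic, HTSeq and DESeq are named in the list of the submitters' processing notes, without versions, annotation, filters or strand handling. In 27 of 21878 rows a date stands for the symbol. Absolute depth is unknown, so no counting intervals are given; the steps between low FPKM values gave depths of 0.891 to 1.08 relative to control 1.

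Rows averaging at least 1 FPKM over the 6 libraries (10721) were fitted as log2(FPKM + 1) with limma 3.58.1 in R 4.3.3, with 1 mean per group, a moderation trend and 3 residual degrees of freedom. Fold changes on this scale understate changes of low genes. P-values were adjusted by Benjamini-Hochberg over all tested rows and called under 0.05; with 2 libraries a group an exact permutation test could not go below 0.333. The model was checked on simulated data. Copies of TATTTAT were counted in the longest 3' UTR of each gene with GENCODE M21 on GRCm38, the assembly of mm10; 96.4% of tested rows had one.

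The members and the 8 lists were chosen with earlier results of these data known. The p-values of named list genes are therefore no independent evidence about a list. Named genes were all members, up to 4 of each list by smallest p in each comparison against control, and the 3 genes most like each tested member, of which 1 is not reported here. Alternatives were other pseudocounts, filters, scalings and moderation, the 4 libraries of a comparison alone, a replicate block and each library left out.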

Additional observations from a re-analysis of the deposited data

How the results depend on the processing

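Overexpression against control gave 165 genes called by limma, 74 higher and 91 lower. Without a filter on low values it gave 9 (9 higher, 0 lower), without the expression trend 97 (44 lower), and with a filter at 5 FPKM 48 were higher. With libraries left out it gave 14 to 172 genes, 12 to 80 higher and 2 to 92 lower; leaving out a library of either group leaves it with 1, assumed to vary like the others. Knockdown against control gave 4948 genes, 1590 higher and 3358 lower, with 2245 higher and 2286 lower after median ratio scaling and 2003 and 2292 after quantile normalization. The higher genes numbered 942 with the filter at 5 FPKM and 973 to 1546 with libraries left out. Overexpression against knockdown gave 3013 higher and 1332 lower, with 1951 higher after median ratio scaling, 1930 after quantile normalization, 802 lower with the filter at 5 FPKM and 789 to 1233 lower with libraries left out. With the replicate block overexpression against control gave 66 genes, 37 higher and 29 lower, and the block ended the calls of Pim1 (limma, adjusted p = 0.0544), Nrn1 (0.0682) and Exosc5 (0.0981). Without the expression trend the same 3 were lost (0.0621, 0.0787 and 0.0892), and after quantile normalization Nrn1 (0.0645) and Exosc5 (0.0523). The numbers name libraries and were not shown to pair them: deviations of same-numbered libraries correlated at -0.211 between overexpression and knockdown, -0.117 between overexpression and control and 0.00692 between knockdown and control. Ccnd1 in overexpression against knockdown changed sign after quantile normalization (-0.035). The cause of these changes was not tested. Depth limits the low genes most, here Zfp36l1 and Tnf.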
